A study of Mus musculus with 7 samples.

Results

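Chemokines are small secreted or membrane-anchored proteins that attract leukocytes, and chemokine receptors are the surface proteins that bind them. The genes described here are the 61 of the 32544 listed mouse genes whose symbols follow the systematic names of the family, 39 ligands (Ccl, Cxcl, Cx3cl and Xcl) and 22 receptors (Ccr, Cxcr, Cx3cr, Xcr and the atypical Ackr). The rule for a gene's membership is its name. The tissue was the whole abdominal aorta of male Apoe-/- mice, in which loss of apolipoprotein E leads to atherosclerosis, fed a high-fat diet for 12 weeks in all. ITA-LNP was given by intravenous injection at 50 mg/kg, 1 time a week, and control animals got a control LNP on the same schedule. Both groups therefore share the Apoe deletion, the diet and weekly injection of a particle. LNP usually stands for lipid nanoparticle, and the study's title gives itaconate, a metabolite of activated macrophages, as the likely reading of ITA. The ITA-LNP group has 3 libraries and the control-LNP group 4. Whether the libraries come from different mice is not in the labels, and p-values then reflect spread between libraries that may be technical in part.

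Most chemokine receptors signal through inhibitory G proteins and turn a gradient of ligand into directed movement of the cell. Inflammatory ligands such as Ccl2 and Cxcl1 are induced at sites of injury, whereas homeostatic ligands such as Cxcl12 and Ccl21a are made constantly by stromal cells and guide leukocyte traffic. The atypical receptors bind chemokines without G protein signalling and remove or transport them. In atherosclerosis of the mouse, Ccl2 with Ccr2 and Cx3cl1 with Cx3cr1 are textbook routes by which monocytes enter the vessel wall, with the receptors carried mainly by leukocytes.

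The libraries held 6375381 to 7281721 reads with ITA-LNP and 5077073 to 6688872 reads with control-LNP, and levels are given as CPM, reads per 1000000 reads assigned to genes. Reads come from transcript ends, so levels were not divided by gene length. Control-LNP replicate 2 stood apart from its group: over genes it correlated with the other control-LNP libraries at 0.607 to 0.625, whereas those correlated with each other at 0.933 to 0.949. Wall and blood markers also separated the groups. The summed level of 10 smooth muscle markers was 17775 to 21643 CPM in ITA-LNP libraries and 542 to 846 CPM in control-LNP libraries, and that of 10 endothelial markers was 1250 to 1614 CPM in ITA-LNP libraries and 257 to 456 CPM in control-LNP libraries. In the test described below, 6 of the endothelial markers were higher with ITA-LNP, 0 were lower and 4 did not pass. Of all genes tested, 10.3% were higher and 5.15% lower. Of the 4 endothelial markers that did not pass, Vwf averaged 78.0 CPM with ITA-LNP and 114 CPM with control-LNP, and Pecam1 226 CPM with ITA-LNP and 204 CPM with control-LNP. Most blood cell marker sums were lower with ITA-LNP. The 10 B cell genes summed to 43.3 to 223 CPM in ITA-LNP libraries and 2264 to 4839 CPM in control-LNP libraries, and the 10 T cell genes to 53.6 to 114 CPM in ITA-LNP libraries and 539 to 1253 CPM in control-LNP libraries. For 8 natural killer cell genes the sum was 1.79 to 2.80 CPM in ITA-LNP libraries and 639 to 992 CPM in control-LNP libraries, and for 11 platelet genes 34.9 to 69.2 CPM in ITA-LNP libraries and 2291 to 3267 CPM in control-LNP libraries. The 10 neutrophil markers summed to 45 to 69.5 CPM in ITA-LNP libraries and to 932 to 26866 CPM in control-LNP libraries. Macrophage markers did not follow: the sums of 10 genes overlapped, at 386 to 490 CPM in ITA-LNP libraries and 256 to 565 CPM in control-LNP libraries. In the test described below, 4 of the 9 macrophage genes tested were higher with ITA-LNP and 1 was lower, beside the same shares of all genes. The label aorta is met by smooth muscle genes at high level in the ITA-LNP libraries and not in the control-LNP libraries. Acta2, the smooth muscle actin, averaged 10802 CPM with ITA-LNP and 98.9 CPM with control-LNP. The 10 extracellular matrix genes summed to 30562 to 33853 CPM in ITA-LNP libraries and 172 to 364 CPM in control-LNP libraries. For 8 red cell genes the sum was 2665 to 4317 CPM in ITA-LNP libraries and 12463 to 45344 CPM in control-LNP libraries. The part of cell makeup in the chemokine results was not tested, and in whole tissue fewer cells of a type and less RNA per cell cannot be told apart.

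The promoters of 4 ligands that the results turn on are shown from 250 bases before to 50 bases after the transcription start, as RefSeq gives them on GRCm38.p6. Capitals mark matches on either strand to a kappaB motif, GGGNNNTTCC, or to a TATA box, TATAAA. Cxcl1 and Cxcl2 are shown because these neighbouring neutrophil attractants differed in their pattern over libraries, and Cx3cl1 and Cxcl12 because both rose and were called in every alternative fit.
Cxcl1: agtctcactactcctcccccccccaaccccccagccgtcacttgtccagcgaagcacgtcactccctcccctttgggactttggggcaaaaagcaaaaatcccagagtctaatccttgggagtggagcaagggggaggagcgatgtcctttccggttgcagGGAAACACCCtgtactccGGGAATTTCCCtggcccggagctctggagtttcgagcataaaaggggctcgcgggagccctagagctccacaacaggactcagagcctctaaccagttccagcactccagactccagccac
Cxcl2: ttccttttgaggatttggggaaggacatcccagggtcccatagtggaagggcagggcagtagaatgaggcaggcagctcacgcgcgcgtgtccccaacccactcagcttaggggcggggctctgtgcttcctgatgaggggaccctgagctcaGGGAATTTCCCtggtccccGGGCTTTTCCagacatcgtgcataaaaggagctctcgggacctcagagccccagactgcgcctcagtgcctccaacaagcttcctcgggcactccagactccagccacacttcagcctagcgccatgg
Cx3cl1: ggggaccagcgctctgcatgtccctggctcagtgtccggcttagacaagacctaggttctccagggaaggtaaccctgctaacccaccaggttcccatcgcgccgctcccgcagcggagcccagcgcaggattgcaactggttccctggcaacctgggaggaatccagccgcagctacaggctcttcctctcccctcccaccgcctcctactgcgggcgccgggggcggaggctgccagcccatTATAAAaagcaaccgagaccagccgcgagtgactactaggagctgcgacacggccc
Cxcl12: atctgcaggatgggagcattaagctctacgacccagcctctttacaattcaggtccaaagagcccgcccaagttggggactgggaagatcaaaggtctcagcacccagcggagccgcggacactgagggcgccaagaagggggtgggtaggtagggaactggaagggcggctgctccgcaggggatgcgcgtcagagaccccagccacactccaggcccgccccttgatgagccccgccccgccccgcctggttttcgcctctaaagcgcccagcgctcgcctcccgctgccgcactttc
These windows lie at chr5:90890995-90891294 for Cxcl1, chr5:90903649-90903948 for Cxcl2, chr8:94771930-94772229 for Cx3cl1 and chr6:117168285-117168584 for Cxcl12, all on the plus strand. Cxcl1 held 3 kappaB matches, of which the last 2 overlap each other, and Cxcl2 held 3, of which the first 2 overlap. Cx3cl1 held a TATA match beginning 6 bases before the listed start, and Cxcl12 held no match to either motif. Of the 61 genes 45 had a promoter in the RefSeq table, with 52 promoters in all. The kappaB letters occurred in 9 of these 52 promoters, or 17.3%, against 5.56% of 32851 mouse promoters of the same length. The 9 belong to Cxcl1, Cxcl2, Cxcl3, Cxcl10, Ccl1, Ccl9, Ccl20, Ccr3 and Ccr6. TATAAA occurred in 14 of 52 member promoters, or 26.9%, against 13.6% of all, and the core of the interferon-stimulated response element, GAAANNGAAA, in 3 of 52 against 3.44% of all. A match says only that the letters are present.

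Of the 61 genes, 9 had 0 reads in all 7 libraries: the ligands Ccl1, Ccl20, Ccl21b, Ccl21c, Ccl26, Ccl27b and Cxcl11 and the receptors Ccr8 and Ackr2. A count of 0 allows up to 3 reads, or 0.412 to 0.591 CPM depending on the library, and such limits cover counting error only. Another 17 had reads but fell under the filter for testing, that the log2(CPM + 1) averaged over the libraries reach 1, which left 35 tested genes, 20 ligands and 15 receptors. Expression was compared on the log2(CPM + 1) scale with limma-trend across all 12636 genes that passed the filter, with Benjamini-Hochberg adjustment over those genes and a threshold of 0.05. Fold changes are ITA-LNP over control-LNP with their standard error, and understate the change of low genes.

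Called ligands were mostly higher with ITA-LNP and called receptors mostly lower. With ITA-LNP, 6 of the 20 tested ligands were higher (Cxcl12, Cx3cl1, Cxcl1, Ccl2, Cxcl16 and Cxcl13) and 2 were lower (Ccl5 and Ccl6). Among the 15 tested receptors, 1 was higher (Ackr3) and 4 were lower (Cxcr6, Ccr2, Cxcr4 and Cx3cr1). Of all genes tested, 10.3% were called higher and 5.15% lower. The median log2 fold change was 1.55 over the tested ligands and -3.01 over the tested receptors, against 0.15 over all 12636 genes, and 13 ligands had a positive value and 7 a negative one, against 2 and 13 receptors. Every ITA-LNP library lay above every control-LNP library for 7 ligands and 1 receptor, against 19.1% of all genes tested, and below for 3 ligands and 6 receptors, against 10.7%. Without control-LNP replicate 2 the calls were 6 ligands higher and 4 lower and 1 receptor higher and 8 lower, when 15.7% of all genes were called in each direction. Median centring of the libraries moved the median of all genes by -1.13 and gave 4 ligands higher and 3 lower and 1 receptor higher and 6 lower, against 5.86% and 9.88% of all genes.

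**Figure D1:**
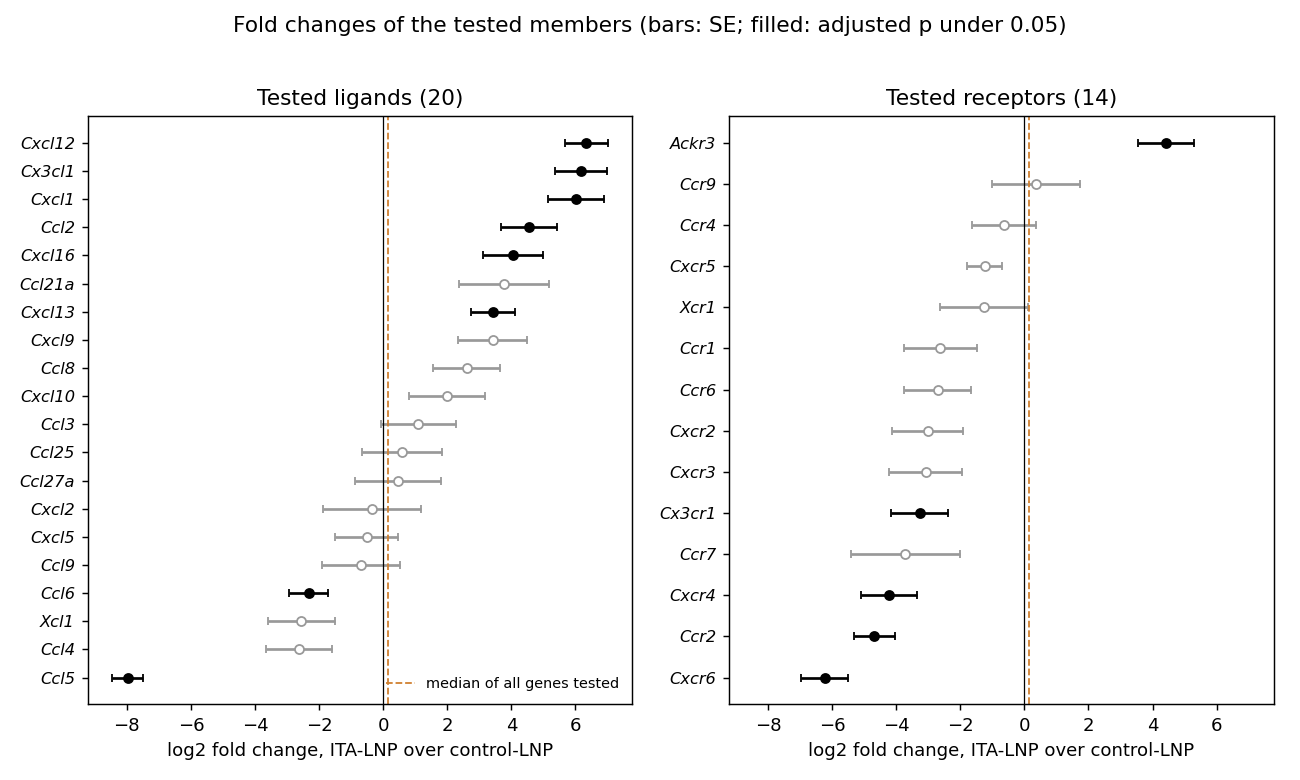
Log2 fold change on the log2(CPM + 1) scale, ITA-LNP over control-LNP (x axis), for each tested chemokine ligand (left, n = 20) and receptor (right, n = 14 shown), with bars for the standard error, filled points for adjusted p under 0.05 and a dashed line at 0.15, the median of all genes tested. Ligands spread from -7.97 for Ccl5 to 6.34 for Cxcl12, while 12 of the 14 receptors lie left of 0. The positive values of Ccl25, Ccl27a, Ccl3 and Ccr9 turn negative with median centring, and Cxcl2 turns positive without control-LNP replicate 2.

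**Figure D2:**
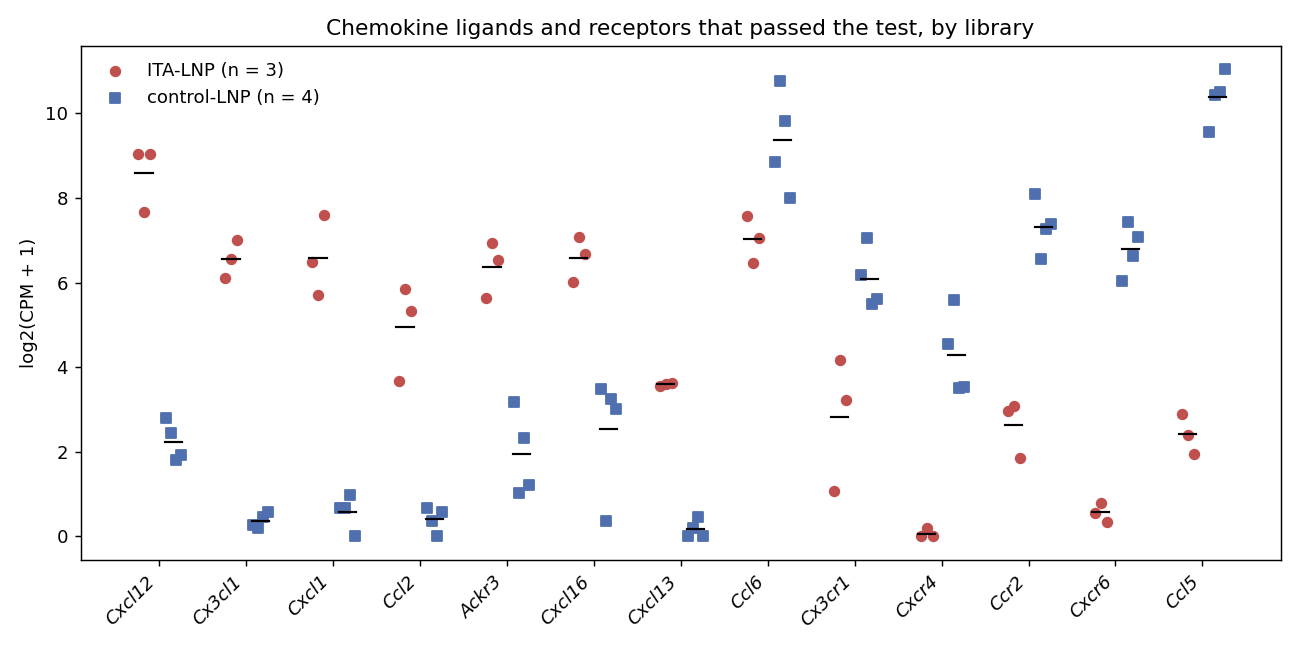
Level in each library, as log2(CPM + 1) (y axis), of the 13 genes that passed the test, ordered by fold change, with circles for the 3 ITA-LNP libraries, squares for the 4 control-LNP libraries and dashes for group means. The groups do not overlap for any of these genes, and Cxcl16 has 1 control-LNP library far below its group.

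Cxcl12, the stromal ligand that holds leukocytes and progenitors through Cxcr4, was the most abundant ligand of the ITA-LNP libraries and rose. Its gene lies at chr6:117168535-117181367 on the plus strand of mm10. It stood at 527, 201 and 523 CPM in ITA-LNP libraries, against 5.91, 4.49, 2.5 and 2.79 CPM in control-LNP libraries. The groups lay far apart, with the lowest ITA-LNP library above every control-LNP library, and the log2 fold change was 6.34 ± 0.67 (limma adjusted p = 0.00033). Cxcl12 remained called in all 19 alternative fits. Cxcl13, which draws B cells into follicles through Cxcr5 (chr5:95956951-95961068, plus strand), was low but even in ITA-LNP libraries, at 10.8, 11.1 and 11.4 CPM, against 0, 0.150, 0.385 and 0 CPM in control-LNP libraries. These are 227 reads with ITA-LNP against 3 with control-LNP, a ratio of pooled levels of 85.4 with a 95% counting interval of 28.8 to 417. Its log2 fold change was 3.43 ± 0.69 (limma adjusted p = 0.00765), and the call was lost without control-LNP replicate 4 (adjusted p = 0.0602) and with median centring (0.162).

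Ccl21a, the lymphatic ligand that brings dendritic cells and naive T cells to lymph nodes through Ccr7, was uneven with ITA-LNP. It had 80.3, 43.6 and 0 CPM in ITA-LNP libraries, against 0, 0, 0.577 and 0 CPM in control-LNP libraries, or 808 reads against 3. With 1 ITA-LNP library at 0 the groups overlapped, and the log2 fold change, 3.78 ± 1.40, missed the threshold (limma adjusted p = 0.109), and passed it without ITA-LNP replicate 3 (adjusted p = 0.00635). Of its terminal sequence, 56.6% of 50-base words are shared with the near-copies Gm13304 and Gm21541, so its reads are uncertain. The lymphatic marker sum was 81.2 to 147 CPM in ITA-LNP libraries and 1.2 to 67.0 CPM in control-LNP libraries, and its genes, named after their values were seen, differed in direction. Lyve1 averaged 83.4 CPM in ITA-LNP libraries and 3.35 CPM in control-LNP libraries, Mmrn1 11.1 CPM in ITA-LNP libraries and 37.0 CPM in control-LNP libraries, and Prox1 0.0491 CPM in ITA-LNP libraries and 1.65 CPM in control-LNP libraries. Flt4 had 11.3, 0.147 and 0.137 CPM in ITA-LNP libraries and 0 reads in control-LNP libraries. Pdpn averaged 8.67 CPM in ITA-LNP libraries and 0.169 CPM in control-LNP libraries. Of the 3 lymphatic genes tested, Lyve1 and Pdpn passed as higher and Mmrn1 did not pass. Of all genes tested, 10.3% passed as higher.

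Ccl25, the thymic and gut ligand of Ccr9, stood at 9.88, 20.8 and 0.137 CPM in ITA-LNP libraries and 6.70, 0, 5.77 and 5.41 CPM in control-LNP libraries. Ccl27a, the skin ligand of Ccr10, stood at 10.2, 30.7 and 0.137 CPM in ITA-LNP libraries and 3.15, 0.299, 10.4 and 12.1 CPM in control-LNP libraries. Both had their lowest values in ITA-LNP replicate 3 and control-LNP replicate 2, and their groups overlapped. The log2 fold changes were 0.60 ± 1.25 for Ccl25 and 0.47 ± 1.34 for Ccl27a (limma adjusted p = 0.811 and 0.867), and both turn negative without control-LNP replicate 2 or with median centring. Exons of both overlap a gene on the other strand, Elavl1 for Ccl25 and Il11ra1 for Ccl27a, and strand handling is not stated. Ccl27a also shares 56.8% of its terminal 50-base words with near-copies such as Ccl27b. Il11ra1 averaged 50.4 CPM in ITA-LNP libraries and 1.85 CPM in control-LNP libraries. The homeostatic ligands together summed to 499 ± 175 CPM with ITA-LNP and 16.5 ± 6.72 CPM with control-LNP (SD, n = 3 and 4), most of it Cxcl12 in ITA-LNP libraries.

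Both ligands that are made as membrane-anchored proteins were higher with ITA-LNP. Cx3cl1, or fractalkine, holds monocytes on endothelium through Cx3cr1 (chr8:94772009-94782427, plus strand). It stood at 68.2, 93.0 and 128 CPM in ITA-LNP libraries, against 0.197, 0.150, 0.385 and 0.492 CPM in control-LNP libraries, where it had 7 reads in all. Every ITA-LNP library was far above every control-LNP library, with a log2 fold change of 6.18 ± 0.81 (limma adjusted p = 0.000965) that passed in all 19 alternatives. Cxcl16 binds Cxcr6 and also takes up oxidized lipoprotein (chr11:70453983-70459984, minus strand). It stood at 64.0, 134 and 100.4 CPM in ITA-LNP libraries, against 10.2, 0.299, 8.46 and 7.05 CPM in control-LNP libraries. The groups did not overlap and control-LNP replicate 2 was the lowest library, and the log2 fold change was 4.06 ± 0.93 (limma adjusted p = 0.0151). Leaving out ITA-LNP replicate 2 or 3 lost the Cxcl16 call, with an adjusted p of at most 0.0793. Without control-LNP replicate 2 its value was 3.34 (adjusted p = 0.000995). Exons of Cxcl16 overlap Zmynd15 on the other strand, which averaged 6.30 CPM in ITA-LNP libraries and 1.66 CPM in control-LNP libraries.

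Among the inflammatory CC ligands, called genes lay on both sides. Ccl2, the main monocyte attractant (chr11:82035571-82037453, plus strand), stood at 11.8, 57.0 and 39.0 CPM in ITA-LNP libraries, against 0.591, 0.299, 0 and 0.492 CPM in control-LNP libraries. It was close to undetected with control-LNP, at 8 reads in 4 libraries, and its log2 fold change was 4.55 ± 0.87 (limma adjusted p = 0.00618). Leaving out any 1 library kept that call, and median centring did not (adjusted p = 0.0647). Ccl5, which T cells, natural killer cells and platelets store and release (chr11:83525778-83530518, minus strand), had the highest mean level of all members with control-LNP and was lower with ITA-LNP. It stood at 6.43, 4.27 and 2.88 CPM in ITA-LNP libraries, against 759, 1390.2, 1447 and 2104 CPM in control-LNP libraries. On average it was 315-fold higher with control-LNP, with a log2 fold change of -7.97 ± 0.48 (limma adjusted p = 1.45e-05), called in all 19 alternatives. The T cell, natural killer cell and platelet marker sums given above moved the same way as Ccl5, and their part was not tested.

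Ccl6, a mouse chemokine of myeloid cells that acts on Ccr1 (chr11:83587882-83593087, minus strand), stood at 189, 87.4 and 132 CPM in ITA-LNP libraries, against 459.9, 1726, 904 and 257 CPM in control-LNP libraries. The groups did not overlap, but control-LNP libraries spanned a wide range, and their mean of 837 CPM was 540.2 CPM without replicate 2. The log2 fold change was -2.33 ± 0.60 (limma adjusted p = 0.0273), and Ccl6 was called in 10 of the 19 alternatives. Among others, the call was lost on leaving out control-LNP replicate 3 or any ITA-LNP library (largest adjusted p = 0.117), with median centring (0.139) and with no filter (0.0543). Ccl9, of the same mouse group, stood at 5.33, 20.8 and 13.2 CPM in ITA-LNP libraries and 58.5, 1.2, 44.8 and 26.7 CPM in control-LNP libraries. Apart from control-LNP replicate 2 every control-LNP library was above every ITA-LNP library, and the log2 fold change was -0.69 ± 1.21 with all libraries and -1.76 without it (limma adjusted p = 0.77 and 0.0592).

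Ccl3 and Ccl4, attractants of myeloid and T cells, did not pass. Ccl3 stood at 30.1, 13.9 and 6.45 CPM in ITA-LNP libraries and 10.4, 0, 14.8 and 12.6 CPM in control-LNP libraries, which overlapped. Ccl4 stood at 7.06, 0 and 3.02 CPM in ITA-LNP libraries and 14.4, 8.82, 22.3 and 41.5 CPM in control-LNP libraries, with all control-LNP libraries the higher. The log2 fold changes were 1.10 ± 1.18 for Ccl3, at -0.03 with median centring, and -2.62 ± 1.03 for Ccl4 (limma adjusted p = 0.606 and 0.124). Ccl4 passed without control-LNP replicate 2 (adjusted p = 0.0424). Ccl8, a CC chemokine of macrophages, stood at 6.12, 41.7 and 0.824 CPM in ITA-LNP libraries, against 0.394, 0.299, 0.385 and 0.328 CPM in control-LNP libraries. All ITA-LNP libraries were the higher, ITA-LNP replicate 2 most of all, and the log2 fold change, 2.60 ± 1.04, missed the threshold (limma adjusted p = 0.131), and passed it without ITA-LNP replicate 3 (0.0322). Summed over its 12 genes, the inflammatory CC group stood at 240.2 ± 19.2 CPM with ITA-LNP and 2328 ± 755 CPM with control-LNP (SD, n = 3 and 4).

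The neutrophil attractants that act on Cxcr2 differed from each other. Cxcl1 (chr5:90891241-90893115, plus strand) stood at 88.3, 51.0 and 192 CPM in ITA-LNP libraries, against 0.591, 0.598, 0.962 and 0 CPM in control-LNP libraries, 12 reads in all. Each ITA-LNP library was far above every control-LNP library, and the log2 fold change of 6.01 ± 0.87 (limma adjusted p = 0.00163) passed in all 19 alternatives. Cxcl2, its neighbour, stood at 96.6, 52.0 and 22.9 CPM in ITA-LNP libraries and 7.29, 1385, 85.4 and 15.6 CPM in control-LNP libraries. A single library, control-LNP replicate 2, set the control-LNP mean, which was 373 CPM with it and 36.1 CPM without it. The log2 fold change of Cxcl2 was -0.35 ± 1.53 with all libraries and 1.13 without that replicate (limma adjusted p = 0.917 and 0.378). That library also held the highest neutrophil marker sum, 26866 CPM, and the highest Cxcr2, and the part of neutrophil content was not tested. Cxcl5 stood at 3.76, 0.147 and 2.06 CPM in ITA-LNP libraries and 5.12, 0, 2.31 and 7.87 CPM in control-LNP libraries, with a log2 fold change of -0.52 ± 0.97 (limma adjusted p = 0.788) and groups that overlapped.

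Cxcl9 and Cxcl10, induced by interferon and bound by Cxcr3 of effector T cells, did not pass. Cxcl9 stood at 5.96, 41.4 and 28.6 CPM in ITA-LNP libraries and 6.70, 0, 0 and 0.820 CPM in control-LNP libraries, with a log2 fold change of 3.41 ± 1.09 (limma adjusted p = 0.0655). Cxcl10 stood at 28.2, 0.147 and 12.4 CPM in ITA-LNP libraries and 3.74, 0.150, 1.15 and 0.164 CPM in control-LNP libraries, with a log2 fold change of 1.99 ± 1.18 (limma adjusted p = 0.305). In each case 1 ITA-LNP library did not exceed the highest control-LNP library. Exons of Cxcl10 overlap Art3 on the other strand, at 83.8 CPM in ITA-LNP libraries and 1.48 CPM in control-LNP libraries on average. Xcl1, or lymphotactin, released by natural killer and T cells, stood at 0, 0.295 and 0 CPM in ITA-LNP libraries and 6.30, 0, 14.6 and 13.8 CPM in control-LNP libraries. That is 2 reads with ITA-LNP against 192 with control-LNP, and the pooled level was 85.1-fold higher with control-LNP (95% counting interval 23.2 to 708). With control-LNP replicate 2 also at 0, the log2 fold change, -2.56 ± 1.04, missed the threshold (limma adjusted p = 0.138), and it passed without that library (0.00419).

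Ackr3, the scavenging receptor that binds and removes Cxcl12 (chr1:90203980-90216751, plus strand), was the receptor that rose. It stood at 48.5, 121 and 90.9 CPM in ITA-LNP libraries, against 8.08, 1.05, 4.04 and 1.31 CPM in control-LNP libraries. The groups did not overlap, and the log2 fold change of 4.42 ± 0.88 (limma adjusted p = 0.0072) was called without any 1 library. It is also expressed by vascular endothelium and smooth muscle, whose marker sums were higher with ITA-LNP, and their part was not tested. The other atypical receptors were below the filter. Ackr1, the chemokine-binding receptor of red cells and venules, had 216 of its 217 ITA-LNP reads in replicate 1, against 8 reads with control-LNP, and it overlaps Cadm3 on the same strand. Ackr4, the scavenger of Ccl19, Ccl21 and Ccl25, had all its 126 ITA-LNP reads in replicate 2, against 1 read with control-LNP.

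The 5 tested myeloid receptors all had negative fold changes, as had 46.4% of all genes tested. They stayed negative with median centring, where the median of all genes was -0.98. Of the 5, 2 passed as lower, against 5.15% of all genes tested. Ccr2, which lets classical monocytes follow Ccl2 (chr9:124101950-124113557, plus strand), stood at 6.74, 7.52 and 2.61 CPM in ITA-LNP libraries, against 270.04, 92.5, 153 and 166 CPM in control-LNP libraries. Its groups were widely separated, with a log2 fold change of -4.69 ± 0.64 (limma adjusted p = 0.00126), called in all 19 alternatives. Cx3cr1, the fractalkine receptor of monocytes and macrophages (chr9:119901616-120069879, minus strand), stood at 1.10, 16.9 and 8.38 CPM in ITA-LNP libraries, against 70.9, 132, 44.2 and 48.2 CPM in control-LNP libraries. Every ITA-LNP library was lower, with a log2 fold change of -3.27 ± 0.88 (limma adjusted p = 0.0327). That call was lost on leaving out control-LNP replicate 1, 3 or 4 or ITA-LNP replicate 1 or 3, with an adjusted p of at most 0.0967, and with median centring (0.0615). The monocyte marker sum was 521 to 604 CPM in ITA-LNP libraries and 619 to 972 CPM in control-LNP libraries. Of its 8 genes, 1 was called higher and 3 lower, against 10.3% and 5.15% of all genes tested. Of these, named after their values were seen, Vcan averaged 174 CPM with ITA-LNP and 7.02 CPM with control-LNP, Plac8 1.75 CPM with ITA-LNP and 291 CPM with control-LNP, Ly6c2 0.729 CPM with ITA-LNP and 147 CPM with control-LNP, and Chil3 0.880 CPM with ITA-LNP and 64.4 CPM with control-LNP. The other 4 did not pass. Nr4a1 averaged 265 CPM with ITA-LNP and 99.6 CPM with control-LNP, and Ace 103 CPM with ITA-LNP and 32.1 CPM with control-LNP. F13a1 averaged 21.0 CPM with ITA-LNP and 110 CPM with control-LNP, and Treml4 0.199 CPM with ITA-LNP and 33.8 CPM with control-LNP. Nr4a1, Vcan and Ace had the highest ITA-LNP means in the sum.

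Cxcr2, the neutrophil receptor, stood at 8, 25.1 and 1.24 CPM in ITA-LNP libraries and 29.5, 266, 89.0 and 23.5 CPM in control-LNP libraries. Ccr1, of monocytes and neutrophils, stood at 11.5, 5.89 and 0.687 CPM in ITA-LNP libraries and 14.2, 96, 72.9 and 9.02 CPM in control-LNP libraries. Both overlapped between groups by a narrow margin, with log2 fold changes of -3.01 ± 1.10 for Cxcr2 and -2.62 ± 1.13 for Ccr1 (limma adjusted p = 0.105 and 0.157). The myeloid receptors summed to 44.8 ± 13.9 CPM with ITA-LNP and 483 ± 191 CPM with control-LNP (SD, n = 3 and 4).

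Of the 9 tested receptors of lymphoid and dendritic cells, Cxcr6 and Cxcr4 passed, both as lower, against 5.15% of all genes tested. Cxcr6, which binds Cxcl16 and marks tissue-homing T cells and natural killer T cells (chr9:123806475-123811760, plus strand), stood at 0.471, 0.737 and 0.275 CPM in ITA-LNP libraries, 10 reads in all, against 65.2, 171, 97.7 and 134 CPM in control-LNP libraries. The log2 fold change was -6.23 ± 0.74 (limma adjusted p = 0.000599), and it passed in all 19 alternatives. Cxcr4, the broad leukocyte receptor of Cxcl12 (chr1:128588199-128592293, minus strand), stood at 0, 0.147 and 0 CPM in ITA-LNP libraries, against 22.5, 46.9, 10.4 and 10.5 CPM in control-LNP libraries. This is a single read against 546, and the pooled level was 484-fold higher with control-LNP, with a 95% counting interval of 86.5 to 19150.5 and a log2 fold change of -4.23 ± 0.89 (limma adjusted p = 0.00964). The B cell, T cell and natural killer cell marker sums were also lower with ITA-LNP, and their part was not tested.

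For Cxcr3, Ccr6 and Ccr7, control-LNP replicate 2 was far below the rest of its group. Cxcr3, of effector T cells, had 0 reads in all 3 ITA-LNP libraries, against 11.8, 0, 12.9 and 27.1 CPM in control-LNP libraries. Against a floor of 3 reads per ITA-LNP library it was at least 29.3-fold higher with control-LNP, or 18.6-fold without control-LNP replicate 4. Ccr6, of B cells and T cells, stood at 0, 0.147 and 0 CPM in ITA-LNP libraries and 12.8, 0, 13.3 and 10 CPM in control-LNP libraries. Ccr7, the lymph node homing receptor, stood at 0.157, 17.5 and 0.687 CPM in ITA-LNP libraries and 111, 0.748, 126 and 139.7 CPM in control-LNP libraries. For all 3 genes, control-LNP replicates 1, 3 and 4 lay above and replicate 2 within or below the ITA-LNP range. None passed with all libraries, at log2 fold changes of -3.07 ± 1.14 for Cxcr3, -2.70 ± 1.04 for Ccr6 and -3.71 ± 1.69 for Ccr7 (limma adjusted p = 0.11, 0.121 and 0.179). All 3 passed without control-LNP replicate 2, at 0.00219 for Cxcr3, 0.00236 for Ccr6 and 0.0054 for Ccr7.

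Cxcr5, which guides B cells into follicles, varied little within each group. It stood at 27.3, 22.8 and 20.9 CPM in ITA-LNP libraries and 49.0, 73.9, 56.7 and 50.7 CPM in control-LNP libraries, with no overlap and control-LNP replicate 2 the highest. The log2 fold change was -1.24 ± 0.55 (limma adjusted p = 0.168), and 0.0393 without control-LNP replicate 2. The B cell marker sum was 43.3 to 223 CPM in ITA-LNP libraries and 2264 to 4839 CPM in control-LNP libraries, and the part of B cells was not tested. Cxcr5 overlaps Bcl9l on the other strand, at 18.8 CPM in ITA-LNP libraries and 11 CPM in control-LNP libraries. Ccr9, the gut and thymic homing receptor, stood at 32.3, 46.9 and 16.8 CPM in ITA-LNP libraries and 73.1, 0.299, 47.3 and 68.4 CPM in control-LNP libraries. Its log2 fold change of 0.35 ± 1.37 (limma adjusted p = 0.907) was -1.04 without control-LNP replicate 2 and -0.77 with median centring. Xcr1, of cross-presenting dendritic cells, stood at 8.47, 0.295 and 8.79 CPM in ITA-LNP libraries and 24.6, 0.150, 19.2 and 31.5 CPM in control-LNP libraries, and Ccr4, of helper T cells, at 0, 6.04 and 0.137 CPM in ITA-LNP libraries and 6.11, 0, 1.73 and 3.94 CPM in control-LNP libraries. The groups overlapped for both, with log2 fold changes of -1.26 ± 1.38 for Xcr1 and -0.64 ± 1.00 for Ccr4 (limma adjusted p = 0.614 and 0.736). Lymphoid and dendritic receptors summed to 70.3 ± 23.6 CPM with ITA-LNP and 383 ± 74.7 CPM with control-LNP (SD, n = 3 and 4).

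**Figure D3:**
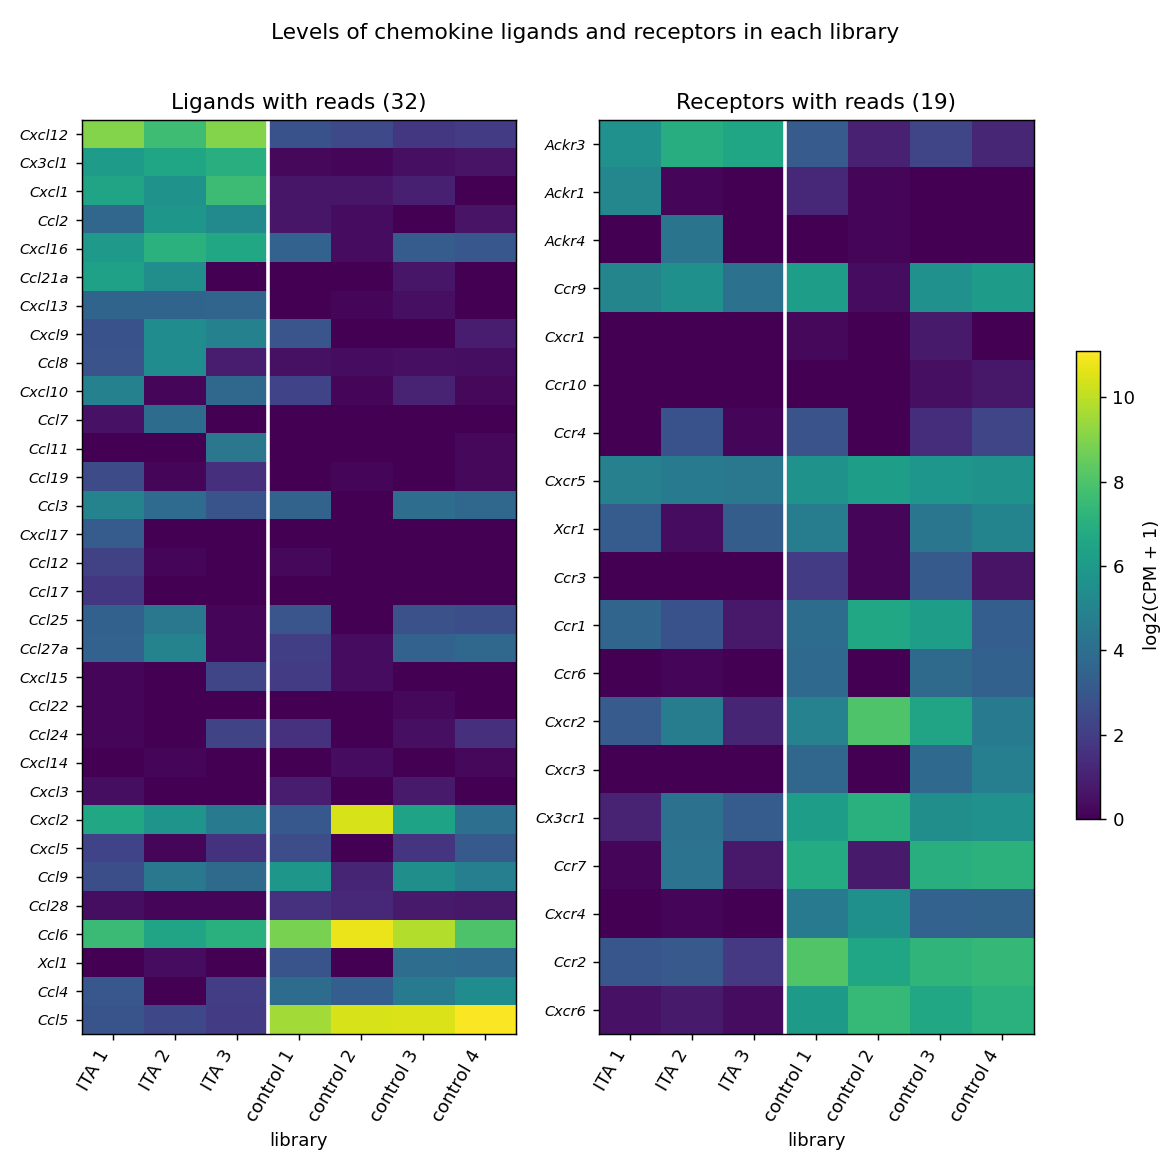
Level of the 32 ligands (left) and 19 receptors (right) with reads that are shown, as log2(CPM + 1) by colour, in each library (columns, with the 3 ITA-LNP libraries left of the white line and the 4 control-LNP libraries right of it). Cxcl12, Cx3cl1, Cxcl1 and Ackr3 are bright in every ITA-LNP library and Ccl5, Cxcr6 and Ccr2 in every control-LNP library, while control-LNP replicate 2 is dark for Ccr7, Ccr6, Cxcr3 and Xcr1 and brightest for Cxcl2 and Cxcr2.

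As sums, both ligands and receptors were lower in every ITA-LNP library than in every control-LNP library, the ligands by a narrow margin. The ligands together came to 1270.0, 919 and 1249.6 CPM in ITA-LNP libraries and 1367, 4520.0, 2569 and 2511 CPM in control-LNP libraries, with control-LNP replicate 1 close to the highest ITA-LNP library. Receptors came to 199, 290.5 and 168 CPM in ITA-LNP libraries, against 830.01, 1050.3, 809 and 789 CPM in control-LNP libraries. What made up the ligand sum differed. Cxcl12 gave 41.5%, 21.9% and 41.9% of it in ITA-LNP libraries, and Ccl5 gave 55.5%, 30.8%, 56.3% and 83.8% of it in control-LNP libraries. In control-LNP replicate 2, Ccl6 at 38.2% and Cxcl2 at 30.6% stood beside Ccl5. Ackr3 was the leading receptor of the ITA-LNP libraries, at 24.3%, 41.5% and 54.1% of the receptor sum, and Ccr2 led in control-LNP replicates 1, 3 and 4 with 32.5%, 18.9% and 21.0%.

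**Figure D4:**
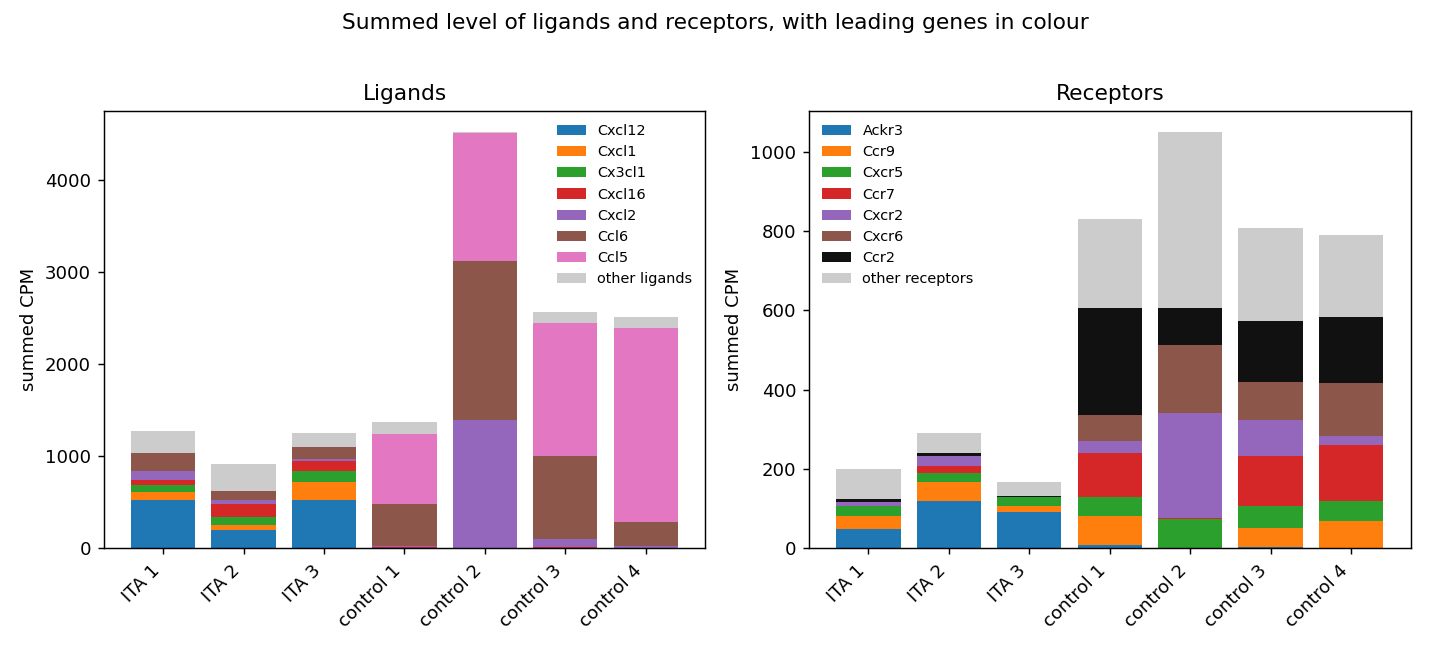
Summed CPM of all ligands (left) and all receptors (right) in each library (x axis, ITA-LNP libraries left of control-LNP libraries), with coloured segments for leading genes and grey for all others. The ITA-LNP ligand bars of 919 to 1270.0 CPM are led by Cxcl12 and the control-LNP bars of 1367 to 4520.0 CPM by Ccl5 or Ccl6, and all receptor bars with ITA-LNP, at most 290.5 CPM, are below those with control-LNP.

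Known ligand and receptor partners were set side by side, using a list of pairs whose binding is textbook knowledge. Of 33 such pairs, 19 had both genes tested, which share 16 ligands and 13 receptors and so are not independent. In 11 pairs the ligand had a positive and the receptor a negative fold change, in none the reverse, in 2 both were positive and in 6 both were negative. The list is not complete, and the counts depend on it. For example, it leaves out Ccl25 with Ackr4, and Ccl6 with Ccr1, which were both negative (-2.33 and -2.62). Over all tested genes, 13 of 20 ligands were positive and 13 of 15 receptors negative. Ligands and receptors that are not partners would therefore often show the same signs, and these counts are not particular to partners. In 4 pairs both genes passed in opposite directions: Cxcl12 with Cxcr4, Ccl2 with Ccr2, Cx3cl1 with Cx3cr1 and Cxcl16 with Cxcr6, each with the ligand higher and the receptor lower with ITA-LNP. Cxcl12 with its scavenger Ackr3 was the single pair in which both passed higher. No pair had both genes called lower. With median centring the counts of signs were 9, 0, 1 and 9, and 2 pairs passed in opposite directions. Since both genes of a pair come from the same libraries, the part of cell makeup in these contrasts was not tested.

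**Figure D5:**
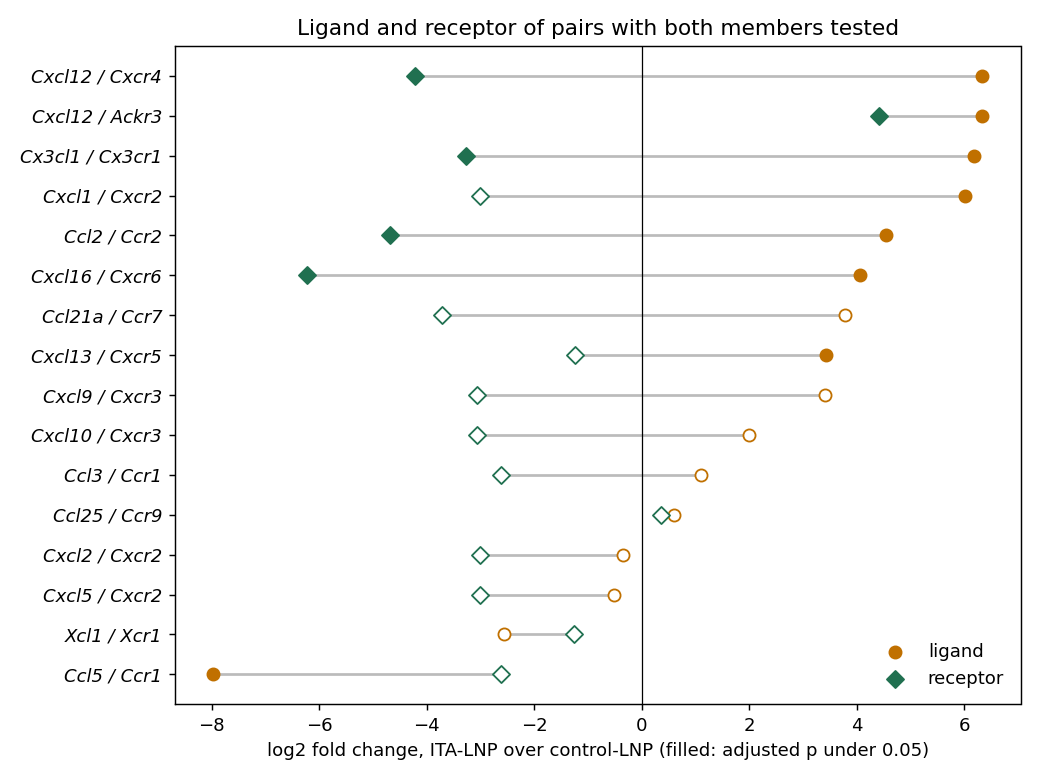
Log2 fold change, ITA-LNP over control-LNP (x axis), of the ligand (circle) and the receptor (diamond) of 16 partner pairs with both genes tested, filled where adjusted p is under 0.05. In 10 of the 16 pairs the ligand lies right and the receptor left of 0, and Cxcl12 with Ackr3 is the pair with both filled symbols on the right. The pair Ccl25 with Ccr9 lies right of 0 here and left of it with median centring.

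Chemokine genes lie in clusters, and calls within a cluster could lie on both sides. The CC cluster at chr11:82035571-83664683 holds 11 of the genes, 7 of them tested. Toward its start Ccl2 passed as higher and Ccl8 had every ITA-LNP library above control-LNP, and toward its end Ccl5 and Ccl6 passed as lower and Ccl4 had every ITA-LNP library below. The CXC cluster at chr5:90759360-92365485 holds 8 genes, 5 tested, of which Cxcl1 passed as higher. The receptor cluster at chr9:119901616-124147699 holds 10 genes, 7 tested, of which Cx3cr1, Cxcr6 and Ccr2 passed as lower and none as higher. Of all 15 tested receptors, in this cluster or not, 1 passed as higher and 4 as lower. Of all genes tested, 10.3% passed as higher and 5.15% as lower. On chromosome 8, Cx3cl1 lies between Ccl22 and Ccl17, both under the filter.

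Among the 17 genes under the filter, 12 ligands and 5 receptors, reads were often in a single ITA-LNP library. Ccl7, a monocyte attractant like Ccl2, had 0.471, 14.3 and 0 CPM in ITA-LNP libraries and 0 reads in all control-LNP libraries. Ccl11, the eotaxin that attracts eosinophils through Ccr3, had 0, 0 and 20.3 CPM in ITA-LNP libraries and 0.164 CPM at most in control-LNP libraries. Cxcl17, a mucosal chemokine, had 8.31, 0 and 0 CPM in ITA-LNP libraries, and Ccl17, a dendritic cell ligand of Ccr4, 2.51, 0 and 0 CPM, both with 0 reads in control-LNP libraries. Ccl12, a mouse monocyte attractant, had 24 reads with ITA-LNP against 1 with control-LNP, and Ccl19, a ligand of Ccr7 with near-copies, 47 against 2. Ccl24, a further eotaxin, had 29 reads with ITA-LNP against 23 with control-LNP, Ccl28, a mucosal ligand of Ccr10, 4 against 27, and Cxcl15, known as lungkine, 30 against 16. Ccr3, the eosinophil receptor, had 0 reads in ITA-LNP libraries, against 2.95, 0.150, 7.89 and 0.492 CPM in control-LNP libraries, and was at least 6.5-fold higher with control-LNP on the same floor, or 2.71-fold without control-LNP replicate 3. The other 5 genes, Ccl22, Ccr10, Cxcl14, Cxcl3 and Cxcr1, had at most 8 reads in either group.

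The platelet chemokines Pf4 and Ppbp, whose symbols fall outside the systematic names, were both lower with ITA-LNP. Pf4, platelet factor 4, stood at 101, 26.2 and 27.9 CPM in ITA-LNP libraries, against 1775, 2065, 2737 and 3081 CPM in control-LNP libraries. Ppbp, the platelet precursor of a neutrophil attractant, stood at 28.5, 33.3 and 5.77 CPM in ITA-LNP libraries, against 1153, 2952, 1166 and 1484 CPM in control-LNP libraries. Groups were far apart for both, at log2 fold changes of -5.77 ± 0.47 for Pf4 and -6.36 ± 0.60 for Ppbp (limma adjusted p = 8.96e-05 and 0.000194). Platelet markers moved the same way, with 10 of 11 called lower, against 5.15% of all genes tested, and their part was not tested.

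Downstream of the receptors, 39 genes of chemokine signal transduction (G protein subunits, regulators, kinases and integrin activators) were tested, of which 2 passed as higher (10.3% of all genes did), 14 as lower (5.15% of all genes) and 23 did not pass. Their median log2 fold change was -1.97, against 0.15 over all genes, and 21 were lower without control-LNP replicate 2, when 15.7% of all genes were. The lowest p-values among those that fell belonged to leukocyte and platelet genes. Rgs18, a G protein regulator of platelets, averaged 3.42 CPM in ITA-LNP libraries and 512 CPM in control-LNP libraries, and Fermt3, the integrin activator kindlin-3, 0.746 CPM in ITA-LNP libraries and 163 CPM in control-LNP libraries. Lyn, a Src-family kinase, averaged 61.5 CPM in ITA-LNP libraries and 641 CPM in control-LNP libraries, and Rac2, the leukocyte Rac GTPase, 36.4 CPM in ITA-LNP libraries and 619 CPM in control-LNP libraries. The genes that rose were Gng12, a G protein gamma subunit, at 283 CPM with ITA-LNP and 24.8 CPM with control-LNP, and Rgs16, a further G protein regulator, at 19.5 CPM with ITA-LNP and 0.511 CPM with control-LNP. The Rgs16 call was lost without control-LNP replicate 1, 3 or 4 or ITA-LNP replicate 1. Of 10 related chemoattractants and decoys, 3 were lower with ITA-LNP (Cklf, Fpr1 and Fpr2, or 6 without control-LNP replicate 2) and none higher (1 without that replicate). The Fpr1 and Fpr2 calls were lost without control-LNP replicate 3 or any ITA-LNP library, and the chemerin gene Rarres2 averaged 108 CPM in ITA-LNP libraries and 27.9 CPM in control-LNP libraries without passing (log2 fold change 2.60 ± 1.06, limma adjusted p = 0.137).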

How the data were processed

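Total RNA (TRIzol, then a column) entered QuantSeq 3′ libraries at 500 ng, per the labels' protocols. Per the submitters' processing notes, the build was mm10. Aligner, counter, annotation and strand handling are not given in those sources. The authors deposited log10 values, with no further note on scale. They were read as log10(CPM + 1), because columns of 10 to the power of the value, less 1, sum to 1000000. Whole reads were recovered for 100% of values (tolerance 0.01), which gave the depths. The log2(CPM + 1), with 1 CPM as pseudocount, was fitted with limma-trend (limma 3.58.1, R 4.3.3) on the 3 ITA-LNP and 4 control-LNP libraries, no covariate, a mean of at least 1, and Benjamini-Hochberg adjustment at a threshold of 0.05. The procedure was tested on simulated data. The members, lists and partner pairs were chosen with earlier results of these data known. Of the genes that the naming rule covers, 1 is not reported here, though it stayed in the tests, counts and sums. All other members that passed the filter are named, as are those below it with 10 or more reads in at least 1 library or with a tested partner, Pf4, Ppbp, and up to 4 genes per direction of the signalling and related lists. Coordinates are from GENCODE M21 and promoters from RefSeq. The alternatives tried were pseudocounts of 0.25 and 4 CPM, a filter at 2 or none, median centring, quantile normalization, no trend, a robust prior, sample weights, limma-voom on recovered reads, a replicate block and leaving out each library. Median centring without control-LNP replicate 2 was added after the values were seen. Counting intervals and floors ignore PCR copies. Python 3.11.15, pandas 2.3.3, numpy 2.4.6, scipy 1.17.1 and matplotlib 3.10.9 were used.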

Additional observations from a re-analysis of the deposited data

Results flagged for a closer look

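Of the 35 tested genes, 8 had a control-LNP library whose gap to its nearest neighbour took a share of the group's whole range on the log2(CPM + 1) scale above Dixon's 95% critical value for 4 libraries. For normally distributed values chance flags about 1 in 20 groups, a rate that low counts with zeros need not follow. In 7 of the 8, control-LNP replicate 2 was the lowest. The share of the range was 0.949 for Ccr7 (0.748 CPM in that library), 0.910 for Ccl25 (0 CPM), 0.902 for Ccr6 (0 CPM), 0.894 for Ccr9 (0.299 CPM), 0.883 for Ccl3 (0 CPM), 0.858 for Xcr1 (0.150 CPM) and 0.845 for Cxcl16 (0.299 CPM). The eighth was Ccl21a, where control-LNP replicate 3 held all 3 reads of its group, at 0.577 CPM and a share of 1. Any gene with reads in a single control-LNP library has that share.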

How the results depend on the processing

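Over the 35 tested genes and 19 alternatives, 564 results kept their direction and their side of the threshold, 42 came to pass it, 27 no longer passed it and 23 changed sign, while genes under the stricter filter gave no value there. Cxcl12, Cx3cl1, Cxcl1, Ccl5, Ccr2 and Cxcr6 kept their calls in all 19. Leaving out each library gave 5 to 7 ligands higher, 1 to 4 ligands lower, 1 receptor higher and 3 to 8 receptors lower, and over all genes 974 to 1982 higher and 398 to 1982 lower, where 1306 and 651 were called with all libraries. The highest of these counts for lower calls came without control-LNP replicate 2. Ligands called lower numbered 1 with no filter, with no trend and with voom, and 5 with median centring without control-LNP replicate 2. Receptors called lower numbered 9 with quantile normalization, with sample weights and with median centring without that replicate. All genes called were 741 higher and 1249 lower with median centring, 1401 lower with quantile normalization, 2100 higher and 2243 lower with sample weights, and 2447 lower with median centring without control-LNP replicate 2. The share of calls that were higher was 66.7% with all libraries and 37.2% with median centring. Same-numbered libraries did not deviate together (correlations of 0.01, -0.01 and -0.02). With 3 and 4 libraries this cannot tell whether a number marks a shared litter, day or batch, and the labels do not say. With a replicate block the calls were 738 higher and 322 lower over all genes, 3 ligands higher and 2 lower, and 0 receptors higher and 2 lower, without Ackr3, Ccl2, Cxcl13, Cxcl16, Cx3cr1 and Cxcr4. Control-LNP replicate 4 has no same-numbered ITA-LNP library, so the block fit draws its fold changes from 3 against 3 libraries. Its median over all genes, 0.32, was the same as without control-LNP replicate 4. The log2 fold changes that changed sign were those of genes that did not pass. Ccl25 was -0.53 with median centring, -0.0060 with sample weights, and between -0.28 (no ITA-LNP replicate 2) and 1.85 (no ITA-LNP replicate 3) on leaving out a library, with -0.10 in the absence of control-LNP replicate 2 and -0.33 there with median centring. Ccl27a was -0.66, -0.50, -0.58, 1.82, -0.21 and -0.44 in the same 6 settings, and -0.032 with quantile normalization. Ccr9 was -0.77 with median centring, -0.91 with quantile normalization, -1.06 with sample weights, and -1.04 to 0.90 on leaving out a library, lowest in the absence of control-LNP replicate 2, where median centring gave -1.27. Ccl3 was -0.029 with median centring and -0.068 when control-LNP replicate 2 was also left out. Cxcl2 was 1.31 with sample weights, and -1.33 to 1.13 on leaving out a library, with 1.13 in the absence of control-LNP replicate 2, 0.18 in that of ITA-LNP replicate 3, and 0.90 on leaving out that control-LNP library with median centring. Cxcl5 was -1.14 to 0.061 on leaving out a library, highest in the absence of ITA-LNP replicate 2. The cause of these changes was not tested. Depth limits genes below 0.412 to 0.591 CPM.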

Other observations

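In the ITA-LNP libraries, reads of 11 members lay at 95% or more in a single library: Ackr1, Ccl12, Ccl17 and Cxcl17 in replicate 1, Ackr4, Ccl7, Ccr4 and Ccr7 in replicate 2, and Ccl11, Ccl24 and Cxcl15 in replicate 3. For example, all 148 ITA-LNP reads of Ccl11 were in replicate 3, all 126 of Ackr4 in replicate 2, and 119 of 125 of Ccr7 in replicate 2. Over all genes with 100 to 1000 reads in the group, 629 of 6942, or 9.06%, were of this kind in the 3 ITA-LNP libraries. In control-LNP replicates 1, 3 and 4 they were 6 of 6619, or 0.0906%. Both shares leave out genes under 100 reads, so the count of 11 members cannot be set against them. The numbers of genes detected were 12226 to 12856 in ITA-LNP libraries and 10846 to 15333 in control-LNP libraries.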
